A study of Mus musculus with 8 samples.

Results

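The cytosolic ribosomal proteins are the protein components of the ribosome that translates nuclear messenger RNAs. Their probes were taken by name, as every probe whose platform gene symbol is that of a large subunit protein (Rpl), a small subunit protein (Rps), Rpsa or a P-stalk protein (Rplp), without ribosomal S6 kinases and pseudogene names. The rule found 60 probes for 57 genes among 23473 gene probes, 38 of them for the large and 22 for the small subunit. Rpl5, Rpl26 and Rpl37a had 2 probes each. All 60 probes passed the filter on dim probes, which kept 21661 probes for testing. Rplp0, Rplp2, Rps6 and Rpl3 were not analysed here.

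RNA came from embryoid bodies of the mouse embryonic stem cell line called iTbx6 T-GFP in the labels, whose name refers to an inducible Tbx6 and a T (Brachyury) reporter. The 4 groups were day 2 without doxycycline (Dox), day 2 with Dox, day 4 without Dox and day 4 with Dox, with 2 single-colour arrays each. All groups grew in a serum-free differentiation medium without added growth factors, and the embryoid bodies were dissociated and reaggregated after day 2. The labels do not say when Dox was added, whether the line is 1 clone or whether replicates were separate cultures, so each p-value reflects the spread between the arrays at hand, which may be technical. The samples hold no Dox-treated cells that lack the transgene, and an effect of Dox itself cannot be told apart from one of Tbx6.

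Each ribosome carries nearly every ribosomal protein once, and proteins of both subunits are assembled on ribosomal RNA in the nucleolus. Their messenger RNAs begin with a run of pyrimidines, the 5′ terminal oligopyrimidine or TOP motif, through which mTOR signalling and the RNA-binding protein Larp1 set how much of them is translated and how long they last. A few genes have paralogs with a narrow tissue range, such as Rpl3l of heart and skeletal muscle. Pluripotent stem cells and early embryonic tissues make ribosomes at a high rate, and the Myc factors drive many genes of this process.

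Promoters are shown for 4 of the 5 members that rose with Dox at day 4, all but Rplp1. Each sequence is the gene's strand from 80 bases before to 20 after its first listed start, from RefSeq on GRCm38.p6. CCGGAAG, the core of many ETS factor sites, and CTTTCC, a stretch of pyrimidines, are in capitals.
Rpl10: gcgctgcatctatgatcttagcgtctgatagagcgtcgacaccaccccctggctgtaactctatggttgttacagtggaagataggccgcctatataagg
Rpl38: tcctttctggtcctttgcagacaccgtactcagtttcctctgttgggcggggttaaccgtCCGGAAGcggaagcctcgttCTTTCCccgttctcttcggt
Rps21: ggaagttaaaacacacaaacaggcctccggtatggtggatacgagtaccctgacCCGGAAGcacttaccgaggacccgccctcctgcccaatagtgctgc
Rps25: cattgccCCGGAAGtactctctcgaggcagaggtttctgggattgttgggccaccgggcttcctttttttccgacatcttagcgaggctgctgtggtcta
These lie at chrX:74270736-74270835 (Rpl10), chr11:114668500-114668599 (Rpl38), chr2:180257299-180257398 (Rps21) and chr9:44407634-44407733 (Rps25), all on the plus strand. The Rpl38 stretch holds both motifs, those of Rps21 and Rps25 hold CCGGAAG, and neither set of letters is in the Rpl10 stretch. Other runs of pyrimidines, such as that in the Rps25 stretch, are not marked. Of the 57 member genes, 46 have an entry in the table. For the shares, a gene counted if the window of 300 bases around any of its listed starts held the motif. CCGGAAG on either strand was in 20 of the 46 (43.5%) against 2683 of 27025 genes in the table (9.93%). CTTTCC on the gene's strand was in 19 (41.3%) against 4328 (16%). The motifs do not overlap in the Rpl38 stretch, and a match is a description of the sequence only.

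Values below are log2 intensities after subtraction of the blank spots and quantile normalization. Probes differ in how strongly they bind, and their positions and sequences are unknown here, so one gene's value is not read against another's. Ribosomal protein genes have many near-identical processed pseudogenes, and binding of their transcripts to these probes was not tested. In RNA from whole embryoid bodies, fewer cells of a type and less RNA per cell cannot be told apart. Between 20197 and 20927 gene probes per array lay above the blank spots, arrays of a group correlated at 0.993 or more, and arrays of different groups at 0.985 or less. With 2 arrays a group, their number limits the precision.

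The check of the labels rested on Tbx6 and T. Tbx6 read 5.59 and 5.49 (no Dox) against 5.21 and 5.48 (Dox) at day 2, then 5.50 and 5.58 (no Dox) against 6.10 and 6.23 (Dox) at day 4. It rose at day 4 by 0.62 ± 0.12 (SE; limma adjusted p = 0.00915) and did not pass at day 2 (-0.20 ± 0.12, adjusted p = 0.395), and directions throughout follow the array labels. T, the streak factor, rose by 6.55 ± 0.11 at day 4. Summed over 6 measured pluripotent cell markers, the log2 signal was 14.80 to 14.94 at day 2, 6.96 and 7.03 at day 4 without Dox and 13.64 and 13.66 at day 4 with Dox. The 8 streak and mesoderm markers summed to 6.82 to 6.97 except at day 4 with Dox (11.42 and 11.46), and the 7 neural markers to 8.10 to 8.73 except at day 4 without Dox (12.09 and 12.21). The 7 endoderm markers summed to 7.09 and 7.31 at day 2 without Dox and 5.32 and 5.39 with Dox, where 6 were lower. At day 4 they summed to 5.33 and 5.64 without and 6.97 and 6.79 with Dox. There only 2 were higher with Dox and 1 was lower, with a median change of 0. Apoa1 and Ttr stood at the floor on both day-2 arrays with Dox.

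Most ribosomal protein probes were bright, and after quantile normalization, which fixes the top of each array's distribution, most varied little over the 4 groups. Under 3 of the other scalings the bright ones were lower at day 4 without Dox, as given further on. A probe that missed the threshold is not shown to be unchanged. Of the 60, 40 had a mean log2 intensity of at least 12, where only 389 of all tested probes lay, 8 had a mean between 8 and 12 and 12 a mean below 8. Among the 100 brightest probes 26 were members. The group means spanned less than 0.5 for 47 of the 60 probes and for 38 of the 40 bright ones, and 44 probes passed in none of the 5 comparisons made. The 2 bright probes with a wider span were those of Rpl13a (0.77) and Rpl22l1 (0.60). For the spans and the count of 44 no value over all probes is given, so neither sets the members apart from other genes. With Dox at day 2 the median absolute change was 0.08 for bright members and 0.09 for all probes as bright. With Dox at day 4 it was 0.08 against 0.16. Here and below, probes as bright are all 389 with a mean of at least 12. They include the members and were not matched to them in brightness above 12.

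Among the brightest probes was that of Rpl41, a very short basic protein of the large subunit, at 15.24 and 15.35 without and 15.28 and 15.24 with Dox at day 2, then 15.18 and 15.28 without and 15.28 and 15.20 with Dox at day 4. Its group means differed by no more than 0.06. Rps18 of the small subunit's head (mean 14.97) and the brighter probe of Rpl26, which lies near the exit tunnel (14.86), were in the same range, with group means spanning 0.12 and 0.31. Rpl5 and Rpl11, which join the ribosome together with the 5S ribosomal RNA, passed in no comparison. The Rpl11 probe lay between 13.70 and 13.85 on every array. The brighter Rpl5 probe changed with Dox at day 4 by -0.10 ± 0.09 and the dimmer one by -0.30 ± 0.09 (limma adjusted p = 0.485 and 0.0557). The pairs of probes for Rpl26 and Rpl37a did not pass in any comparison either. Rps3 at the messenger RNA entry changed by -0.20 ± 0.10 with Dox at day 2 and Rpsa, also known as a laminin receptor precursor, by 0.19 ± 0.12 at day 4 (limma adjusted p = 0.265 and 0.311).

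**Figure D1:**
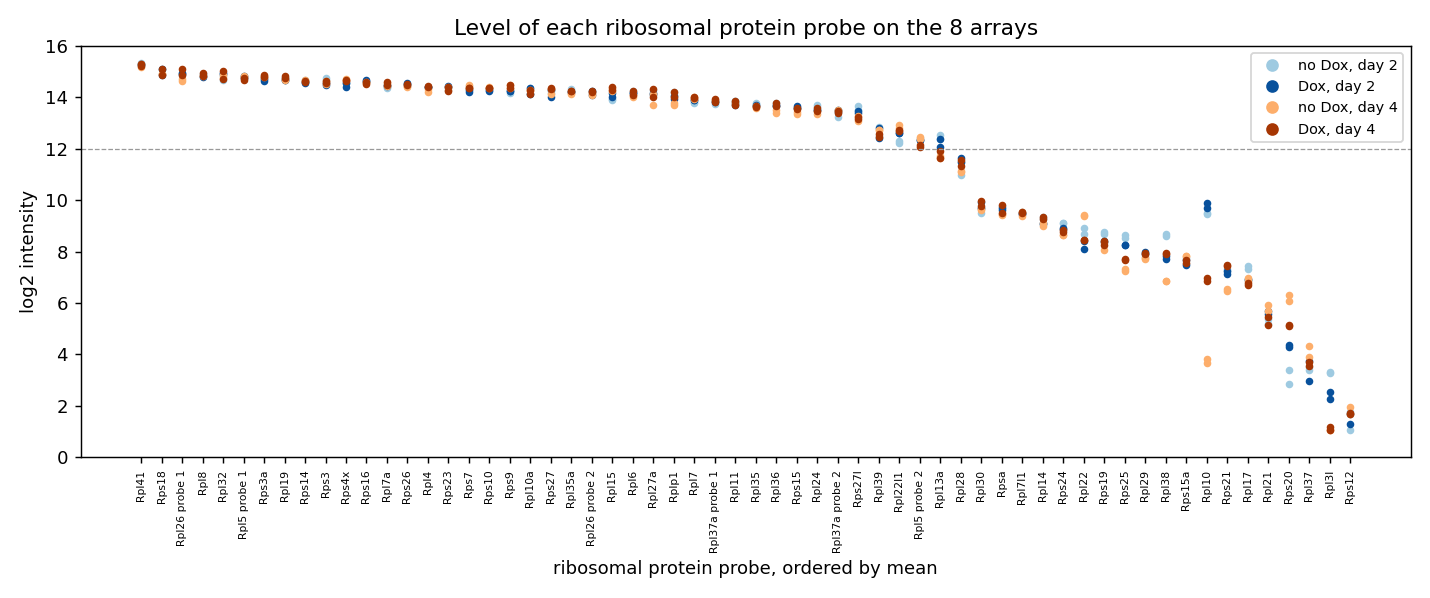
Log2 intensity (vertical axis) of each of the 60 ribosomal protein probes on the 8 arrays, ordered by mean, with 1 point per array coloured by group and a dashed line at 12. The 40 probes with a mean of 12 or more form a flat band, after quantile normalization, and the wide vertical spreads lie among the dimmer probes, with the Rpl10 probe spanning from 3.66 to 9.88.

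With Dox at day 2, the share of ribosomal protein probes that passed was near that of all tested probes. Of the 60, 2 were higher and 4 lower by limma at an adjusted p below 0.05 (10%), against 11.8% of all tested probes, 5.55% of which were higher and 6.25% lower. The members' median change was -0.05 and that of all probes -0.01. Among the 40 bright members 1 passed, where 5.91% of all probes as bright did.

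Rpl38, a large subunit protein whose loss in Tail-short mice lowers translation of particular Hox messenger RNAs, read 8.68 and 8.61 without Dox and 7.69 and 7.81 with it. Both Dox arrays lay below both others, a fall of 0.90 ± 0.10 or 1.86-fold (limma adjusted p = 0.00207). Rpl3l, the muscle paralog of Rpl3, read 3.31 and 3.27 without and 2.53 and 2.27 with Dox. These groups did not overlap, and the fall was 0.89 ± 0.12 (adjusted p = 0.00481) on a probe near the lower end of the scale. Its SE also draws on the day-4 arrays, where most of its values stood at the floor. The endoderm marker sum, given above, was also lower with Dox at day 2, and its part in the day-2 changes was not tested.

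Rps20, a protein of the small subunit's head, was the member that rose most at day 2, from 3.39 and 2.83 to 4.27 and 4.36. The groups did not overlap, and the rise was 1.20 ± 0.18 or 2.30-fold (limma adjusted p = 0.00846). That call ended without DoxOn_day2 replicate 1 or replicate 2, and with only the day-2 arrays fitted (limma adjusted p = 0.0781).

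Rpl22 and its paralog Rpl22l1 moved in opposite directions at day 2. In mice Rpl22 holds down Rpl22l1, which can take its place in the ribosome. Rpl22 read 8.92 and 8.70 without and 8.39 and 8.08 with Dox, a fall of 0.57 ± 0.13 (limma adjusted p = 0.0395), while Rpl22l1 read 12.23 and 12.30 without and 12.63 and 12.63 with Dox, a rise of 0.37 ± 0.09 (adjusted p = 0.0468). The groups of neither overlapped, but both calls were near the threshold. The Rpl22 call ended when any array but DoxOn_day2 replicate 1 was left out (adjusted p 0.0683 to 0.183) and the Rpl22l1 call when any of the 8 was (0.0534 to 0.184). Rpl22l1 also missed under 75th percentile scaling, with a change of 0.26 (adjusted p = 0.148). It missed under median scaling (0.18), cyclic loess (0.0598) and in the authors' deposited values (0.138). With only the day-2 arrays (0.0812) or the replicate number as a block (0.0863) it missed too. Rpl22 missed under median scaling (0.0621), without the filter (0.0537) and with only the day-2 arrays (0.144). Between the days without Dox both genes rose, as given further on. Rpl17, near the exit tunnel, fell by 0.45 ± 0.10 from 7.31 and 7.42 to 6.93 and 6.90 (adjusted p = 0.0293), and missed without any 1 of the day-2 arrays (0.0752 to 0.124).

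**Figure D2:**
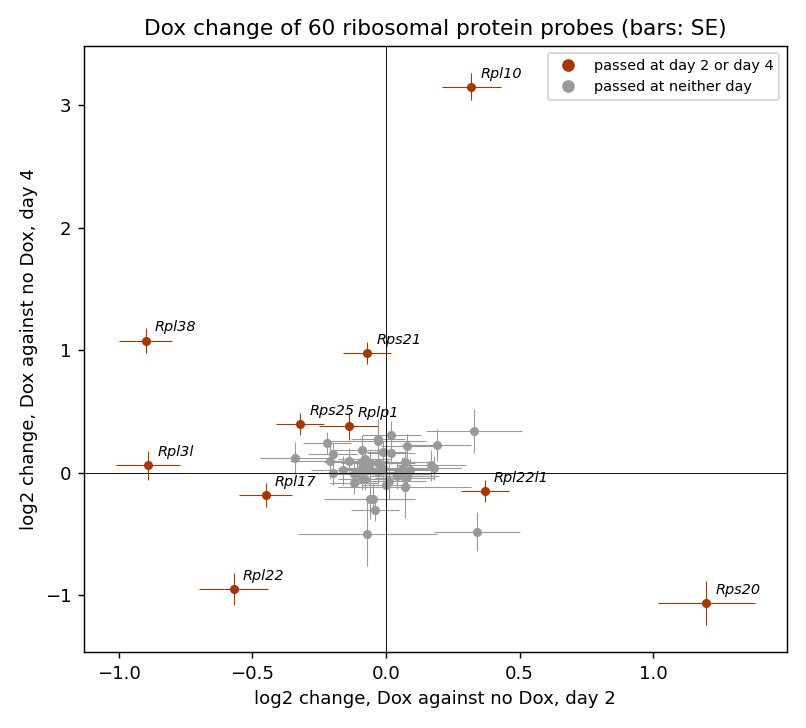
Log2 change with Dox at day 2 (horizontal axis) and at day 4 (vertical axis) for the 60 ribosomal protein probes, with bars of 1 SE and probes that passed at either day named. Most points lie within 0.5 of the origin, while Rpl10 stands at 3.15 at day 4 and Rpl38, Rps20 and Rps21 also lie outside the cloud.

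At day 4 Dox changed more of the array but not more of the bright ribosomal protein probes. By limma 5 members were higher and 2 lower (11.7%), against 29.9% of all tested probes (14.4% higher, 15.5% lower). The members' median change was 0.04 and that of all probes -0.04. Of the 40 bright members 1 passed (2.5%), against 18.5% of all probes as bright and 20.3% of the 349 others. The bright members' median absolute change was 0.08, against 0.16 for all as bright. Neither set was matched to them in brightness above 12. Of the 12 members with a mean below 8, 5 passed, against 28.8% of all probes in that range.

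The Rpl10 probe gave the widest differences of the set. Rpl10 joins the large subunit late, in the cytoplasm, and borders the peptidyl transferase centre. Its log2 intensity was 9.50 and 9.45 at day 2 without Dox and 9.88 and 9.70 with Dox, then 3.82 and 3.66 at day 4 without Dox and 6.84 and 6.95 with Dox. At day 4 the Dox arrays lay above those without Dox but below all day-2 arrays. The rise with Dox at day 4 was 3.15 ± 0.11 or 8.89-fold (limma adjusted p = 4.78e-06), whereas day 2 gave 0.32 ± 0.11 (adjusted p = 0.134). Without Dox the level fell from day 2 to day 4 by 5.73 ± 0.11 or 53.1-fold (adjusted p = 4.58e-07), and with Dox it fell by 2.90 ± 0.11 or 7.44-fold (adjusted p = 3.06e-05). The pluripotent cell marker sum, given above, moved the same way over the 4 groups, with 5 of 6 markers higher with Dox at day 4, all 6 above the blank spots on every array, and their part in these values was not tested. Whether the probe reads Rpl10 alone was not tested either.

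Rpl39l and Rps4l, ribosomal protein paralogs listed on the platform under other names, were also lowest at day 4 without Dox. They lie outside the name rule and were chosen for comparison after their values were known. Rpl39l, a paralog of Rpl39 known from mouse male germ cells, read 9.06 and 9.25 at day 2 without and 9.30 and 9.34 with Dox, then 4.54 and 4.41 at day 4 without and 7.48 and 7.48 with Dox, a day-4 rise of 3.01 ± 0.11 (limma adjusted p = 4.58e-06). Rps4l, a paralog of Rps4x, rose at day 4 from 9.04 and 9.20 to 11.39 and 11.30, a change of 2.22 ± 0.10 (adjusted p = 1.22e-05), and stood at 12.17 to 12.52 at day 2. Their parent genes did not pass, and Rpl39 changed with Dox at day 4 by -0.21 ± 0.17 and Rps4x by -0.05 ± 0.09 (adjusted p = 0.409 and 0.770). Fau and Rpl34, also outside the rule, changed at day 4 by 0.14 ± 0.12 and 0.07 ± 0.09 (adjusted p = 0.442 and 0.663).

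Rpl38 rose with Dox at day 4, opposite to its change at day 2. It read 6.86 and 6.84 without Dox and 7.96 and 7.90 with Dox, an increase of 1.08 ± 0.10 or 2.11-fold (limma adjusted p = 0.00025). The lowest of its 4 groups was day 4 without Dox and the highest day 2 without Dox. Rps21, a small subunit protein, read 6.45 and 6.53 without and 7.49 and 7.44 with Dox at day 4, a rise of 0.98 ± 0.09 (adjusted p = 0.000395), while its day-2 arrays all lay between 7.14 and 7.30. Its day-4 arrays without Dox were the lowest. Rps25, needed for initiation on some viral internal ribosome entry sites, rose from 7.32 and 7.24 to 7.69 and 7.67, by 0.40 ± 0.09 (adjusted p = 0.0195). Its call ended without DoxOFF_day4 replicate 2 (0.0753), DoxOn_day4 replicate 1 (0.0728) or DoxOn_day4 replicate 2 (0.0618).

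The 1 bright member that passed at day 4 was Rplp1, of the stalk that recruits elongation factors. It read 13.69 and 13.77 without and 14.19 and 14.02 with Dox, a rise of 0.38 ± 0.11 (limma adjusted p = 0.0398). The groups did not overlap, but the call ended whichever array was left out (adjusted p 0.0512 to 0.167).

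The members that were lower with Dox at day 4 were Rps20 and Rpl22. Rps20 read 6.29 and 6.09 without and 5.11 and 5.14 with Dox, a fall of 1.06 ± 0.18 or 2.09-fold (limma adjusted p = 0.00537). Rpl22 read 9.39 and 9.41 without and 8.46 and 8.44 with Dox, a fall of 0.95 ± 0.13 or 1.93-fold (adjusted p = 0.00216), so its Dox arrays lay below the others at both days. Rpl22l1, which had been higher with Dox at day 2, read 12.82 and 12.91 without and 12.73 and 12.69 with Dox at day 4.

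**Figure D3:**
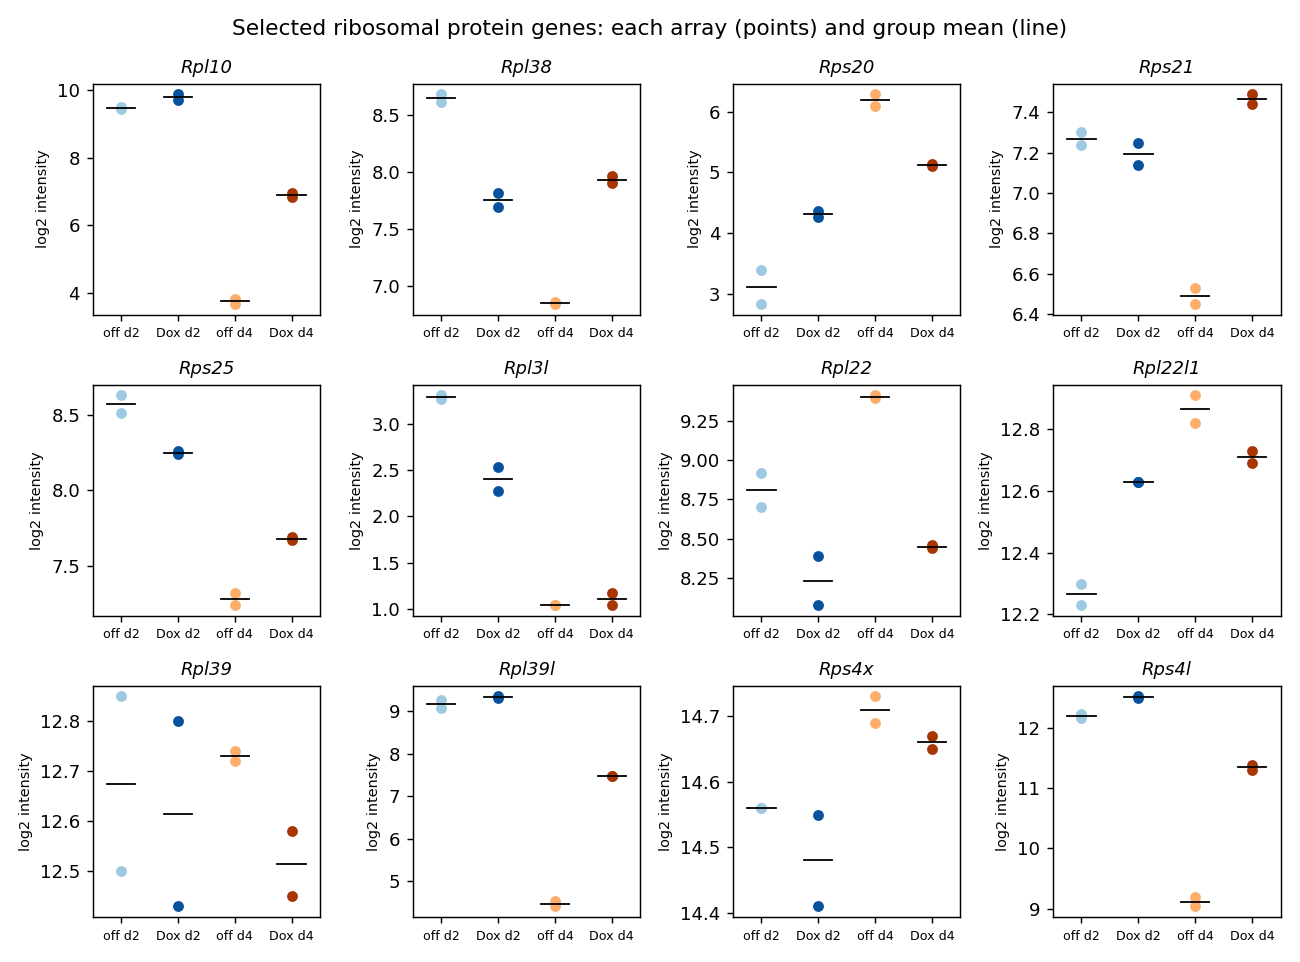
Log2 intensity of 12 ribosomal protein genes in the 4 groups (off, no Dox; d2 and d4, days), with 1 point per array and a line at the group mean; each panel has its own vertical scale. Rpl10, Rpl39l and Rps4l share a deep low at day 4 without Dox, Rps20 is highest where Rpl38 is lowest, at day 4 without Dox, and Rpl39 and Rps4x vary over less than 0.5.

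The change with Dox was tested directly for a difference between the days. By limma 5 members had a more positive change at day 4 and 3 a more negative one (13.3%), against 22.1% of all tested probes (11.1% and 11%). Of the 40 bright members 1 passed, against 13.4% of probes as bright. The differences were 2.83 ± 0.16 for Rpl10, 1.98 ± 0.13 for Rpl38, 1.05 ± 0.13 for Rps21 and 0.72 ± 0.13 for Rps25, with adjusted p from 6.31e-05 to 0.00999. Rpl3l also passed, but 3 of its 4 day-4 values stood at the floor and only 1 was above the blank spots, so its day-4 change was not measured and no difference is given. On the negative side they were -2.27 ± 0.26 for Rps20 (adjusted p = 0.00134), -0.82 ± 0.22 for Rpl21 (0.0419) and -0.52 ± 0.13 for Rpl22l1 (0.0305). The Rpl21 difference missed when any array but DoxOn_day4 replicate 2 was left out (0.0565 to 0.126) and that of Rpl22l1 when any but DoxOFF_day4 replicate 1 was (0.057 to 0.0842). The Rpl22l1 difference also missed under 75th percentile scaling (-0.35, adjusted p = 0.116), under median scaling (-0.40, 0.104) and in the authors' deposited values (-0.36, 0.108). The day-2 and day-4 changes with Dox share no arrays.

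Without Dox, more probes differed between the days than between Dox states, among the members as over the whole array. By limma 5 members were higher and 11 lower (26.7%), against 38.1% of all tested probes (20.2% higher, 17.9% lower). Of the 40 bright members 5 passed, against 27% of all probes as bright, of the 8 between 8 and 12, 3 passed, against 49.1%, and of the 12 dimmest 8 passed, against 36.5%. The low share of bright members depends on the scaling. It was 50% under 75th percentile scaling, against 46.7% of the other bright probes, 37.5% against 38.7% under median scaling and 47.5% against 42.4% in the authors' deposited values. These comparisons share the no-Dox arrays with those above.

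Besides Rpl10, the falls past 1 on the log2 scale were those of Rpl3l, Rpl38 and Rps25. Rpl38 fell by 1.79 ± 0.10 or 3.47-fold (limma adjusted p = 1.75e-05) and Rps25 by 1.29 ± 0.09 or 2.44-fold (adjusted p = 7.47e-05). Rpl3l was above the blank spots on neither day-4 array without Dox, where both stood at the floor of 1.04, and was at least 4.05-fold lower than at day 2. It passed the filter on dim probes only through its day-2 arrays, and values at the floor show no spread, so no p-value is given.

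Rps20 went the other way, from 3.39 and 2.83 at day 2 to 6.29 and 6.09 at day 4, a rise of 3.08 ± 0.18 or 8.44-fold (limma adjusted p = 2.98e-05). It was the largest rise among the 60 probes in this comparison. Rpl22l1 rose by 0.60 ± 0.09 or 1.51-fold (adjusted p = 0.00228).

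Smaller falls without Dox were those of Rps21 (0.78 ± 0.09), Rpl13a (0.77 ± 0.15), which takes part in translational silencing in human monocytes, and Rps24 (0.47 ± 0.09), a small subunit protein mutated in Diamond-Blackfan anaemia in humans. Rpl13a read 12.53 and 12.36 at day 2 and 11.64 and 11.71 at day 4, with no overlap. Their limma adjusted p were 0.000777, 0.00673 and 0.00601.

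The other calls of the day comparison without Dox ended without single arrays. Rps19, also mutated in that anaemia, fell by 0.52 ± 0.13, and missed without DoxOFF_day2 replicate 1, DoxOFF_day2 replicate 2 or DoxOFF_day4 replicate 1. With only the no-Dox arrays fitted, Rps19, Rps27l and Rpl21 missed too (limma adjusted p = 0.065, 0.0946 and 0.07). Rpl17 fell by 0.46 ± 0.10 and missed without DoxOFF_day2 replicate 2 (0.0502). Rplp1 fell by 0.41 ± 0.11 and missed without any 1 of the 4 arrays compared (0.052 to 0.113). Rps27l, a paralog of Rps27 induced by p53 in human cells, fell by 0.40 ± 0.12 and missed without any array but DoxOFF_day4 replicate 2 (0.053 to 0.161). Among the rises, Rpl22 (0.59 ± 0.13) missed without DoxOFF_day2 replicate 2 (0.07), DoxOFF_day4 replicate 1 (0.0533) or replicate 2 (0.0622). Rpl21 (0.52 ± 0.16) missed without any array of the no-Dox groups or of day 2 with Dox (0.0561 to 0.188), and Rpl15 (0.40 ± 0.10) without DoxOFF_day2 replicate 1 (0.0771), DoxOFF_day2 replicate 2 (0.0814) or DoxOFF_day4 replicate 1 (0.0916). The Rpl15 change was only 0.04 under 75th percentile scaling (adjusted p = 0.815), 0.11 under median scaling (0.518) and 0.07 in the authors' deposited values (0.695), and its call also ended under cyclic loess (0.31, 0.0581).

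With Dox, the members differed little between the days. By limma 1 was higher and 3 were lower at day 4 (6.67%), against 19% of all tested probes (9.63% higher, 9.33% lower). Limma called none of the 40 bright members, where 8.23% of probes as bright passed, and 2 had an unadjusted p under 0.05. Rpl3l read 2.53 and 2.27 at day 2 and 1.04 and 1.17 at day 4, where 1 array stood at the floor and 1 above the blank spots. It passed as lower, and missed without background subtraction. Because it passed the filter only through day-2 arrays, no fold or p-value is given. Besides Rpl10, Rps25 fell by 0.57 ± 0.09 (adjusted p = 0.00685). Rps20 rose by 0.81 ± 0.18 (adjusted p = 0.0249), a call that ended without any 1 of the 4 Dox arrays (0.097 to 0.121). Rpl38 and Rps21, which fell without Dox, changed by 0.19 ± 0.10 and 0.27 ± 0.09 (adjusted p = 0.251 and 0.103).

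The other parent genes and paralogs did not pass. Rps27 changed with Dox at day 4 by 0.09 ± 0.14 and by 0.00 ± 0.14 between the days without Dox (limma adjusted p = 0.665 and 1). Rpl7 and Rpl7l1 changed by 0.02 ± 0.09 and 0.04 ± 0.10 with Dox at day 4 (0.887 and 0.800). Rps12, a protein of the small subunit's beak, was dim (mean 1.59), was above the blank spots on 7 of 8 arrays and passed in no comparison. Rpl3l was above them on 5, and the dim Rpl37 probe (mean 3.63) on all 8.

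The change of the bright members between the days without Dox depended on how the arrays were scaled. Under quantile normalization the median change of the 60 probes was -0.06, with 5 higher and 11 lower, and under cyclic loess -0.03, with 3 and 11. Under 75th percentile scaling it was -0.29 with 4 higher and 27 lower, under median scaling -0.22 with 4 and 22, and in the authors' deposited values -0.26 with 4 and 25. Of all probes 36.8% passed under cyclic loess, and 37.4%, 37.8% and 38.8% under the last 3. Under 75th percentile scaling the 40 bright members had a median of -0.30, and 19 fell. The 349 other bright probes had a median of -0.26, with 136 lower and 27 higher. For Dox at day 2 the members' median was -0.05 under quantile normalization and -0.18 under 75th percentile scaling, with 1 higher and 4 lower. For the difference between the days that scaling gave 8 higher and 2 lower, in place of 5 and 3. Under that scaling 11.9% of all probes passed for Dox at day 2 and 22% for the difference. As a share of each array's blank-subtracted signal before scaling, the 60 probes held 9.87% and 9.48% at day 2 without Dox, 9.11% and 9.32% with Dox, 8.88% and 8.77% at day 4 without Dox and 9.16% and 9.23% with Dox. The day-4 arrays without Dox were the lowest.

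**Figure D4:**
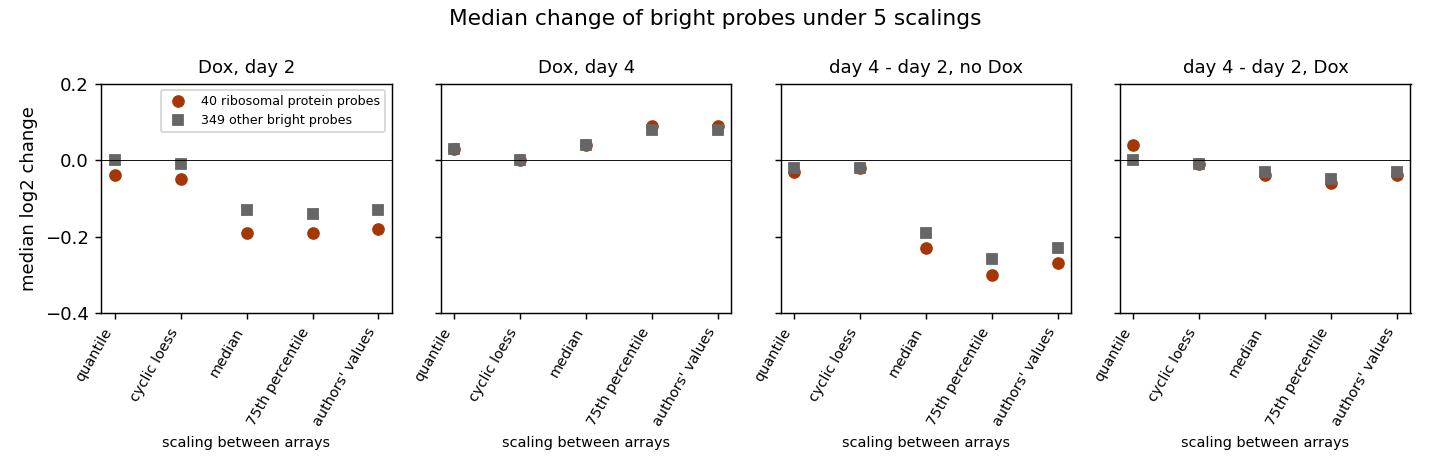
Median log2 change (vertical axis) of the 40 bright ribosomal protein probes (circles) and of the 349 other probes with a mean log2 of at least 12 (squares) under 5 scalings, in 4 comparisons. Without Dox, both medians drop from near 0 under quantile and loess scaling to between -0.19 and -0.30 under the others.

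Genes that build the ribosome were set beside its proteins, as lists of 1 probe per gene. The nucleolar ribosome assembly factors had 26 of 56 measured genes higher and 1 lower with Dox at day 4 (median 0.34, against -0.04 over all probes). This is 48.2% called, against 29.9% of all tested probes, of which 14.4% were higher and 15.5% lower. Most of the 56 had a mean log2 between 8 and 12, where 38.1% of all probes passed with Dox at day 4. Utp14a of the small subunit processome rose by 1.35 ± 0.11 and Rrp1b, a nucleolar protein, by 0.90 ± 0.12 (limma adjusted p = 0.000148 and 0.00157), while Nolc1, a nucleolar phosphoprotein, fell by 0.78 ± 0.14 (0.00576). Between the days without Dox 3 were higher and 25 lower. That is 50% called, against 38.1% of all probes but 49.1% of those with a mean between 8 and 12. In the Dox arrays 1 was higher and 3 were lower at day 4. There 7.14% were called, against 19% of all probes and 21.6% of those in that range. With Dox at day 2, 1 was higher and 1 lower (3.57%, against 11.8%). Under the other 4 scalings 19 to 27 of the 56 were higher with Dox at day 4 and 1 lower. The 77 mitochondrial ribosomal proteins had 21 higher and 5 lower with Dox at day 4 (median 0.12), led by Mrpl33 (1.29 ± 0.12) and Mrps18b (1.19 ± 0.11), and 7 higher and 25 lower between the days without Dox. These shares, 33.8% and 41.6%, lay near those of all probes, 29.9% and 38.1%. The 33 cytosolic translation factors had 3 higher and 1 lower with Dox at day 4 (12.1% called), with Eif4b, an initiation factor, up by 0.58 ± 0.10 (adjusted p = 0.00635). Of 11 genes of RNA polymerase I and ribosomal RNA gene transcription limma called none at day 4, and 3 had an unadjusted p under 0.05. Of 11 chaperones of ribosomal proteins 3 were higher, with Grwd1 at 0.72 ± 0.15, and 1 lower (36.4% called).

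**Figure D5:**
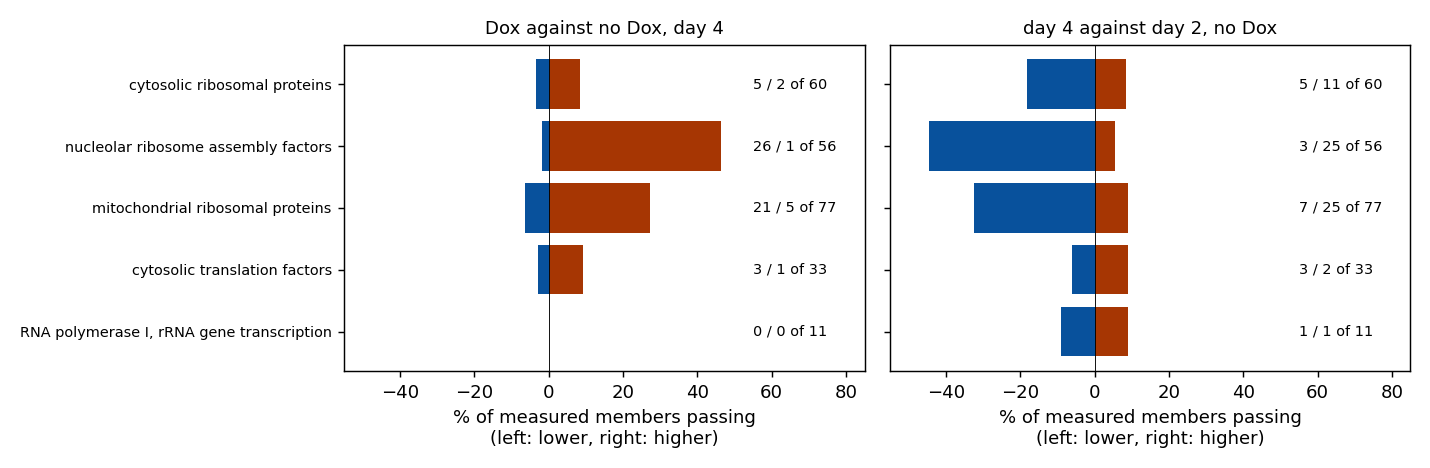
Share of measured genes (horizontal axis, %) that were higher (right) or lower (left) by limma in 5 lists, with Dox at day 4 and between the days without Dox; the numbers are higher, lower and measured. For the cytosolic ribosomal proteins 5 of 60 probes were higher with Dox at day 4, against 26 of 56 nucleolar assembly factors.

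Of 22 regulators of mTOR signalling and TOP messenger RNAs, 6 rose and 1 fell with Dox at day 4 (31.8%), near the 29.9% of all tested probes. Deptor, an inhibitor of mTOR, read 3.42 and 3.48 without and 7.29 and 7.15 with Dox, a rise of 3.77 ± 0.10 (limma adjusted p = 1.31e-06), against 7.41 to 7.69 at day 2. Sesn2, a leucine sensor upstream of mTORC1, rose by 0.94 ± 0.10 (adjusted p = 0.000674). Among 10 Myc family genes and partners, 1 was higher and 3 lower with Dox at day 4 (40%, against 29.9%). Myc rose with Dox from 5.23 and 5.18 to 6.18 and 6.22 at day 2 and by 0.66 ± 0.11 at day 4 (adjusted p = 0.00223 and 0.00403), and Mycl fell by 1.71 ± 0.15 at day 4 (0.000274). Of the TOP host genes of small nucleolar RNAs, Gas5 rose by 1.05 ± 0.11 with Dox at day 2 and Snhg5 by 1.11 ± 0.16 at day 4 (0.00235 and 0.00231). The pluripotent, mesoderm, neural and endoderm marker sums differ between the same arrays, and their part in these lists was not tested.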

How the data were processed

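The authors' deposited scanner output gives a median intensity per spot, scaled over 3 scanner gains per the file headers, and a second intensity given as background. That column followed the spot (correlation of logs 0.984 to 0.998), so the mean of the blank spots was subtracted instead. The authors also deposited processed intensity values, which were taken to log2 as an alternative. Set against the scanner values they were linear (r = 1) with a median of 25 on every array, and no steps are stated. Scanner software and a genome build were not given in the sources used here.

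Gene probes were quantile normalized, set to a floor of 2.06 intensity units (2 blank SDs) and put on the log2 scale. Probes above the blank mean plus 2 SD on at least 2 arrays were tested (21661), 1812 were left out, and 9 with poor spots were among these. Changes were tested with limma 3.58.1 in R 4.3.3 (1 mean per group, all 8 arrays, eBayes with residual df 4 and prior df 2.7, Benjamini-Hochberg over all probes, threshold 0.05, 2-sided). Names come from the platform annotation, updated with RefSeq synonyms. Bounds use the lowest signal above the blanks.

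The named genes are the 5 largest rises and falls past the threshold per comparison, the paralogs with their parents, members with set roles, the brightest and dimmest 3, and up to 2 rises and falls per other list. Members and lists were chosen with earlier results of these data known. The alternatives changed the background correction, scaling, filter, samples, block, eBayes and probes per gene, and left out each array. No probe reached the scanner's top (65535) and headers name no slide or scan, so these alternatives were not run. Tests were checked on simulated data. Replicate numbers did not pair the arrays, since correlations of deviations lay between -0.266 and 0.227. The labels were parsed with jsonlite 2.0.0, and matplotlib 3.10.9 drew the figures.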

Additional observations from a re-analysis of the deposited data

Results flagged for a closer look

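By limma's test of the difference itself, 8 ribosomal protein genes passed for a change with Dox that differed between day 2 and day 4. That is 13.3% of the 60 probes, against 22.1% of all tested probes. The 8 include Rpl3l, whose day-4 change was not measured. The day-4 change minus the day-2 change was 2.83 for Rpl10, 1.98 for Rpl38, 1.05 for Rps21 and 0.72 for Rps25. It was -2.27 for Rps20, -0.82 for Rpl21 and -0.52 for Rpl22l1. The Rpl21 difference missed without the filter on dim probes (limma adjusted p = 0.0671), and that of Rpl22l1 under 75th percentile scaling (0.116). The direction of the Dox change itself was opposite at the 2 days for Rpl38 and Rps20, each passing at both with all arrays fitted. With only the day-2 arrays, the Rps20 change at day 2 missed (limma adjusted p = 0.0781). For Rpl3l the fit gave 0.95, but 1 of its 4 day-4 arrays was above the blank spots and the value depends on the floor.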

How the results depend on the processing

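Of 41 calls of a member in a comparison, 24 held under every alternative run for them but normexp. Rpl3l has no value with the filter on all 8 arrays or in the authors' processed values. Over 804 refits 655 kept the call, 135 lost it and 14 lost it with the sign changed. None of those 14 passed in the new direction. With normexp on the scanner's background column, limma called 0 members in each of the 5 comparisons and 2, 0, 0, 0 and 3 of all probes (Dox at day 2, Dox at day 4, their difference, time without Dox, time with Dox). At an unadjusted p under 0.05 members numbered 3, 5, 5, 1 and 6. Its medians were 0.14 for Dox at day 4 and 0.04 for the difference. All 14 changes of sign were under normexp, some with values near 0. For Dox at day 2 they were Rpl22 (0.71) and Rpl22l1 (-0.47). For Dox at day 4 they were Rpl22 (0.15), Rpl10 (-0.03), Rps21 (-0.08) and Rplp1 (-4.28). Over time without Dox they were Rpl22 (-0.27), Rps27l (1.16), Rps24 (0.14), Rps19 (0.23), Rpl3l (0) and Rpl38 (0). Over time with Dox they were Rpl3l (0.01) and Rps25 (0.64). The scanner's background column follows the spot itself.

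Without background subtraction the counts were 11, 17, 16, 25 and 10 of 60. In the same order, 15.2%, 31.4%, 25.9%, 38.3% and 21.7% of all probes passed. Under 75th percentile scaling the medians were -0.18 for Dox at day 2, 0.26 for the difference, -0.29 without Dox and -0.04 with Dox, with 31 calls without Dox. Median scaling gave -0.17, 0.21 and -0.22 for the first 3 and 26 calls, and the authors' values gave -0.16, 0.12 (Dox at day 4), 0.24 and -0.26 and 29 calls. These 31, 26 and 29 calls without Dox were out of 60, 60 and 59 probes, against 37.4%, 37.8% and 38.8% of all probes. For Dox at day 4, no filter and an eBayes trend each gave 12, against 27.9% and 32.7% of all probes. For Dox at day 2, fitting only the arrays compared gave 2, against 6.21% of all probes. Leaving out each array in turn gave medians from -0.08 to -0.04, 0.02 to 0.07, 0.08 to 0.12, -0.06 to -0.04 and 0.02 to 0.04. Such a fit leaves a group without replicates, so its calls are not counted here. With the replicate number as a block the counts were 4, 7, 7, 15 and 4, against 9.27%, 27.3%, 19.2%, 35.8% and 16.4% of all probes. Dim probes near the blanks limit Rpl3l and Rps12. The causes were not tested.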
